A study of Mus musculus with 12 samples.

Results

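The genes described here are 37 components of bone morphogenetic protein (BMP) and transforming growth factor β (TGF-β) signaling, taken by their symbols from the 55536 genes measured in cultured mouse oligodendrocyte precursor cells (OPCs). They comprise 20 ligands, 4 secreted antagonists, 7 receptors and 6 target genes. The rule that takes them uses no measured value, but it was written with earlier results of these data known. RNA-seq was performed on 12 libraries in 4 groups of 3. Ctr received neither agent. The EZH2i group received EPZ011989, an inhibitor of the histone methyltransferase EZH2, for 4 days at 1.5 μM, renewed after each 48 h. The IFN-γ group received interferon-gamma at 100 ng/ml for 6 h, and the last group received IFN-γ and EZH2i together at these doses and times. All groups shared the same origin and medium: OPCs from the brains of Sox10-GFP pups at postnatal day 4 to 6, with several brains pooled per experiment, on poly-L-lysine in medium with PDGFaa at 10 ng/ml and bFGF at 20 ng/ml. The labels name Sox10GFP+ OPCs, whereas the growth protocol allows either GFP sorting or CD140a beads, so the way each library was isolated is not given. A mouse model tag of EAE is also on every label, and the culture protocol describes pups without induced disease. Replicates were cells from different litters.

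BMPs, activins, growth differentiation factors (GDFs) and TGF-βs are secreted dimers that bring together type I and type II serine/threonine kinase receptors. The activated type I receptor phosphorylates SMAD proteins, which enter the nucleus, and Id genes are classic targets of the BMP branch. Antagonists such as noggin and follistatin bind the ligands outside the cell, and the inhibitory SMADs act as negative feedback inside it. In the oligodendrocyte lineage BMP signaling is known to restrain differentiation and to favor astrocytic fates.

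Levels are given as CPM, that is reads relative to library size after TMM scaling, for replicates 1, 2 and 3 in that order unless a mean ± SD is given. Library totals lay between 17403896 and 66546017 reads (median 33625880). Where each library of a group held 3 reads or fewer of a gene, the gene is described as at the floor. Of the 37 members, 32 passed the filter on low counts and were tested among 18995 genes with edgeR's quasi-likelihood test, and a member was called at a Benjamini-Hochberg adjusted p under 0.05. Bmp5, Bmp8a, Gdf5, Gdf6 and Nodal did not pass. All of them stayed at or under 14 reads in any library. Bmp8a and Bmp8b are close paralogs whose reads can be exchanged in quantification, so their levels are uncertain.

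The cells carried the markers of their label. All 10 OPC markers examined were above the floor in all 4 groups, and their summed level was 9106 to 9220 CPM in Ctr and 7677 to 8183 with EZH2i. It was 5953 to 8141 CPM with IFN-γ and 5123 to 6178 with both agents, and Pdgfra and Cspg4 fell with IFN-γ in both comparisons. Of the 10 microglia and macrophage markers, Aif1, C1qa and C1qb were at the floor in all 4 groups and the sum did not exceed 11.2 CPM in any library. The neuron list summed to 755 to 812 CPM in Ctr, 617 to 921 with EZH2i, 1311 to 1966 with IFN-γ and 1535 to 2273 with both, and 3 of its 10 genes, Syt1, Stmn2 and Tubb3, rose with IFN-γ. Of its 10 genes, 7 had a positive log2 fold change with IFN-γ against Ctr (median 0.68) and 5 with EZH2i present (median -0.05). For EZH2i, 8 were positive against Ctr (median 1.0) and 7 with both agents against IFN-γ (median 0.88, 1 called higher). Tubb3 and Map2 had the highest means of this list over all libraries, 538 and 626 CPM. The pericyte and fibroblast list was low but higher with IFN-γ without overlap, at 8.97 to 17 CPM in Ctr against 18.4 to 25.2 with IFN-γ and at 5.70 to 16.4 with EZH2i against 16.9 to 23.1 with both, and 2 of its 10 genes, Lum and Kcnj8, rose with IFN-γ. The oligodendrocyte list summed to 2275 to 2799 CPM in Ctr, 1357 to 1967 with EZH2i, 2029 to 2442 with IFN-γ and 1264 to 1845 with both. It was lower with EZH2i without overlap, both without and with IFN-γ. Of its 9 tested genes, 0 had a positive log2 fold change in either EZH2i comparison (medians -0.55 and -0.56), and 0 were called. Astrocyte markers overlapped between all groups (1604 to 3457 CPM). The endothelial list was higher with EZH2i without overlap, at 16.3 to 23.3 CPM in Ctr against 29 to 43.8 with EZH2i and at 15.9 to 22.5 with IFN-γ against 24.2 to 38.8 with both, while Emcn and Tie1 were at the floor in all 4 groups. The part of these shifts in the values below was not tested, and in bulk RNA fewer cells of a type and less RNA per cell cannot be told apart.

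IFN-γ was accompanied by called changes in 7 of the 32 tested members against Ctr. The antagonist Fst, the ligands Bmp2 and Inhbb, and the targets Smad6 and Id3 rose, and the ligands Bmp4 and Bmp7 fell. Over all genes tested, 8.75% were called in this comparison, 6.65% higher and 2.1% lower, beside 21.9% of the members. In cells that already had EZH2i, IFN-γ was again accompanied by 7 called members. These were Fst, Bmp2, Inhbb, Smad6 and Id2, which rose, and Bmp4 and Bmp7, which fell, against a background of 8.07% (5.9% higher and 2.17% lower). Both comparisons called Fst, Bmp2, Inhbb, Smad6, Bmp4 and Bmp7, which is 6 of 7 members in each. They share no library, but they come from the same fit and are not independent. Same-numbered libraries of IFN-γ and of both agents correlated at 0.438 or more. The median log2 fold change with IFN-γ was 0.29 over the 32 members and 0.00 over all genes, and with EZH2i present it was 0.24 and 0.00. By class the medians without and with EZH2i were -0.06 and -0.23 for the ligands, 0.63 and 0.77 for the antagonists, 0.17 and 0.17 for the receptors, and 1.10 and 0.82 for the targets. The libraries of the groups did not overlap for 13 members in each comparison, 10 higher and 3 lower without EZH2i and 9 higher and 4 lower with it, where 23% and 21.5% of all genes did not overlap (13.5% higher and 9.52% lower, and 11.8% higher and 9.66% lower).

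**Figure D1:**
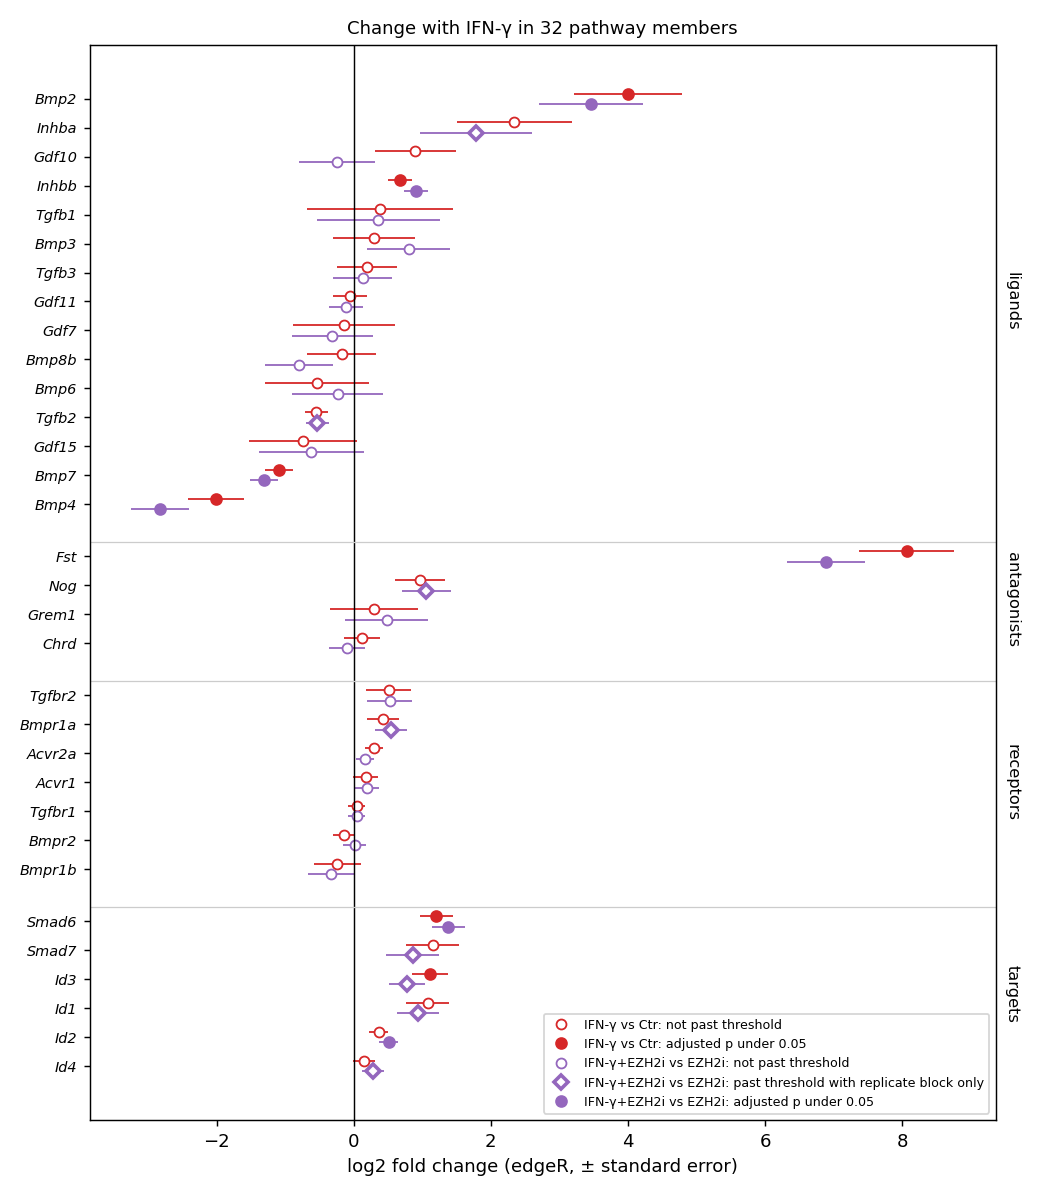
Log2 fold change with IFN-γ (x axis, edgeR, bars are ± standard error) of the 32 tested members by class, without EZH2i (red) and with EZH2i (purple). Filled circles passed an adjusted p of 0.05, and diamonds passed it only in the fit with the replicate number as a block, which is shown for the comparison whose numbers paired. Fst lies farthest to the right at 8.07 and 6.88, and Bmp4 farthest to the left at -2.0 and -2.83. No receptor has a filled circle, and Bmpr1a with EZH2i present is a diamond.

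Among the ligands, Ctr cells had Bmp7, Gdf11 and Bmp4 as the most abundant transcripts per length. Mean TPM over protein-coding transcripts was 21.6 for Bmp7, 16.7 for Gdf11 and 13.6 for Bmp4, followed by Tgfb2 (3.57) and Inhbb (3.37). With IFN-γ the order was Gdf11 (18.7), Bmp7 (11.7), Inhbb (6.15), Bmp2 (4.42) and Bmp4 (4.17). With both agents it was Gdf11 (16.8), Bmp7 (8.84), Inhbb (7.62), Bmp2 (3.97), Tgfb2 (2.41) and Bmp4 (1.87). Neighbors such as Bmp2 and Bmp4 with IFN-γ did not separate: their ratio crossed 1 among the 3 libraries. Apart from the alternatives to the processing, TPM was used only for the order of genes within a group and for ratios within a library. The reason is that a single transcript took 24.7% to 35.8% of the TPM of each library.

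Bmp4 (chr14:46383520-46390669, minus strand, GRCm38), a ligand of the BMP2/4 subgroup made by early oligodendrocyte lineage cells, was at 52.3, 32.01 and 20.7 CPM in Ctr. It was at 12.7, 9.0 and 4.64 CPM with IFN-γ. Every IFN-γ library lay below every Ctr library, and in both groups replicate 1 was the highest and replicate 3 the lowest. This was a log2 fold change of -2.0 ± 0.41 (SE, adjusted p = 0.00776). With EZH2i alone the level was 41.5, 27.2 and 20.5 CPM, and with both agents it was 4.83, 4.29 and 3.50 CPM. Bmp4 fell with EZH2i present as well (log2 fold change -2.83 ± 0.42, adjusted p = 8.84e-04), and the difference between both log2 fold changes was -0.82 ± 0.56 with an unadjusted p of 0.17.

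Bmp2 (chr2:133552159-133562885, plus strand), the closest relative of Bmp4, moved the other way. It was at 2.34, 0.565 and 0.797 CPM in Ctr and at 38.7, 12.3 and 8.86 CPM with IFN-γ. The lowest IFN-γ library stood above the highest Ctr library, and replicate 1 was the highest in both groups. The difference was 4.00 ± 0.79 on the log2 scale (adjusted p = 0.00668). It was 4.80 without Ctr replicate 1 and 3.08 without IFN-γ replicate 1, and the call held in all 12 fits that left out 1 library. With EZH2i Bmp2 was at 3.22, 1.04 and 1.05 CPM, and with both agents at 33.7, 8.81 and 14.5 CPM. The rise with EZH2i present was 3.46 ± 0.76 on the log2 scale (adjusted p = 0.013). That call did not hold without EZH2i replicate 2 or without EZH2i replicate 3, where the adjusted p reached 0.0690. The log2 fold change was 4.18 without EZH2i replicate 1 and 2.74 without replicate 1 of the group with both agents.

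The balance of both ligands can be read within each library, where depth and scaling cancel. Coding-transcript TPM of Bmp4 was 46.9, 121 and 54.0 times that of Bmp2 in the Ctr libraries and 26.8, 52.8 and 40.3 times with EZH2i. With IFN-γ the ratio was 0.684, 1.56 and 1.06, and with both agents 0.303, 1.02 and 0.523. No library with IFN-γ came near a library without it.

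**Figure D2:**
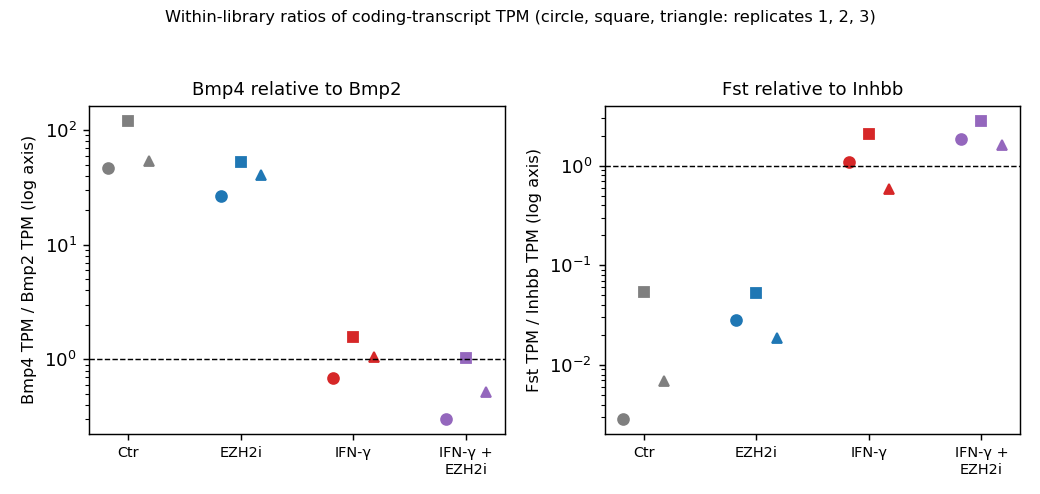
Ratios of coding-transcript TPM within each library on a log axis, Bmp4 over Bmp2 on the left and Fst over Inhbb on the right, for the 4 groups, with 1 symbol per library and a dashed line at a ratio of 1. Bmp4 over Bmp2 lies between 26.8 and 121 in the 6 libraries without IFN-γ and between 0.303 and 1.56 in the 6 with it, and Fst over Inhbb lies at or below 0.0541 without and at or above 0.582 with IFN-γ.

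Bmp7 (chr2:172868012-172940321, minus strand), a BMP of the 60A subgroup, was at 129.6, 119.5 and 102.7 CPM in Ctr and at 71.3, 42.6 and 51.1 CPM with IFN-γ. All IFN-γ libraries lay below all Ctr libraries, with a log2 fold change of -1.09 ± 0.20 (adjusted p = 0.00441). Bmp7 with EZH2i was at 125.4, 105 and 98.2 CPM, and with both agents at 54.7, 41.2 and 36.7 CPM (log2 fold change -1.31 ± 0.20, adjusted p = 0.00119). The groups again did not overlap, and the calls for Bmp7 and for Bmp4 held in all 12 fits that left out 1 library.

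Inhbb encodes the βB subunit, whose homodimer is activin B. It was at 19.0, 20.0 and 22.2 CPM in Ctr and at 36.4, 36.5 and 25.0 CPM with IFN-γ. IFN-γ replicate 3 was the closest to the Ctr libraries but still above them, and the log2 fold change was 0.67 ± 0.17 (adjusted p = 0.0283). Leaving out any 1 of the Ctr replicates, IFN-γ replicate 1 or IFN-γ replicate 2 ended this call (5 of 12 fits, adjusted p up to 0.122). With EZH2i Inhbb was at 22.2, 25.3 and 22.6 CPM, and with both agents at 48.3, 47.7 and 35.9 CPM. The rise with EZH2i present was 0.91 ± 0.17 on the log2 scale (adjusted p = 0.00459) and held in all 12 such fits.

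The promoter window of Inhbb is shown because it is the only window of a member with the core of the interferon-stimulated response element searched for here, GAAA and GAAA with 2 bases of any kind between them, on either strand. The windows hold the 250 bases before the RefSeq transcription start in GRCm38.p6, read 5′ to 3′ on the strand of the gene, and capitals mark the match. The Inhbb window lies at chr1:119422249-119422498 on the minus strand, with its match starting 198 bases before the start. The Bmp4 window at chr14:46390670-46390919, also on the minus strand, is shown beside it as that of a ligand that fell, and it holds none of the motifs searched.
Inhbb: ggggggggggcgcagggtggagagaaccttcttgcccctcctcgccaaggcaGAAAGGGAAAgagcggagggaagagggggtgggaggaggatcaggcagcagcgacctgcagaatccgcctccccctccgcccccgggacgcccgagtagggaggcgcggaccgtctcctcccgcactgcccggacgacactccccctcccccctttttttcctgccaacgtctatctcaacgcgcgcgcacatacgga
Bmp4: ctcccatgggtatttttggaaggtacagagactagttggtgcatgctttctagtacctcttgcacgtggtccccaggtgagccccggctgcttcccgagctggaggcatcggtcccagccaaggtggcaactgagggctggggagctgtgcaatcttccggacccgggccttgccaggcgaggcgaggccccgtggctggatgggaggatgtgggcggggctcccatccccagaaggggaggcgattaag

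RefSeq windows were found for 27 of the 37 members (31 windows). The table used had none for Bmp2, Bmp3, Bmp7, Fst, Gdf5, Gdf6, Id1, Nog, Smad7 and Tgfb3. This core was in 2.98% of all 32851 windows, and the gamma-activated site, TTC and GAA with 3 bases of any kind between them, was in 7.02% of all windows and in 0 of the 31. The matches are descriptions of letters and not sites.

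Inhba, the gene of the activin βA subunit, was at 0.532, 0.113 and 0.424 CPM in Ctr and at 4.02, 1.15 and 0.694 CPM with IFN-γ. The groups did not overlap, and the log2 fold change of 2.34 ± 0.84 did not pass the test (adjusted p = 0.13). With EZH2i it was at 0.894, 0.0548 and 0.425 CPM, and with both agents at 2.27, 1.37 and 1.02 CPM (log2 fold change 1.78 ± 0.82, adjusted p = 0.285). In the comparison of both agents with EZH2i the replicate numbers paired the libraries, and with the number as a block the adjusted p of Inhba was 0.0228.

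Tgfb2, a TGF-β isoform, was at 27.8, 27.8 and 20.8 CPM in Ctr and at 18.8, 16.2 and 17.5 CPM with IFN-γ, without overlap (log2 fold change -0.54 ± 0.17, adjusted p = 0.0729). It was at 25.3, 21.7 and 22.5 CPM with EZH2i and at 19.1, 13.1 and 16.1 CPM with both agents, again without overlap. Here the log2 fold change was -0.53 ± 0.17 (adjusted p = 0.0859), and with the replicate block Tgfb2 fell with an adjusted p of 0.00887. Tgfb1 and Tgfb3, the other isoforms, had mean levels of at most 0.473 and 8.33 CPM in any group and no call in any comparison.

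Gdf11, a relative of myostatin, overlapped between all groups. It was at 115.3, 103.9 and 79.7 CPM in Ctr, at 123.2, 89.6 and 85.9 CPM with EZH2i, at 129.5, 82.1 and 75.8 CPM with IFN-γ and at 122.8, 80.6 and 73.6 CPM with both agents. Replicate 1 was the highest in each group, and none of its 4 log2 fold changes reached beyond -0.11, with a standard error of 0.25 each. The remaining ligands tested, Bmp3, Bmp6, Bmp8b, Gdf7, Gdf10 and Gdf15, had group means between 0.0890 and 2.53 CPM and no call with IFN-γ.

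**Figure D3:**
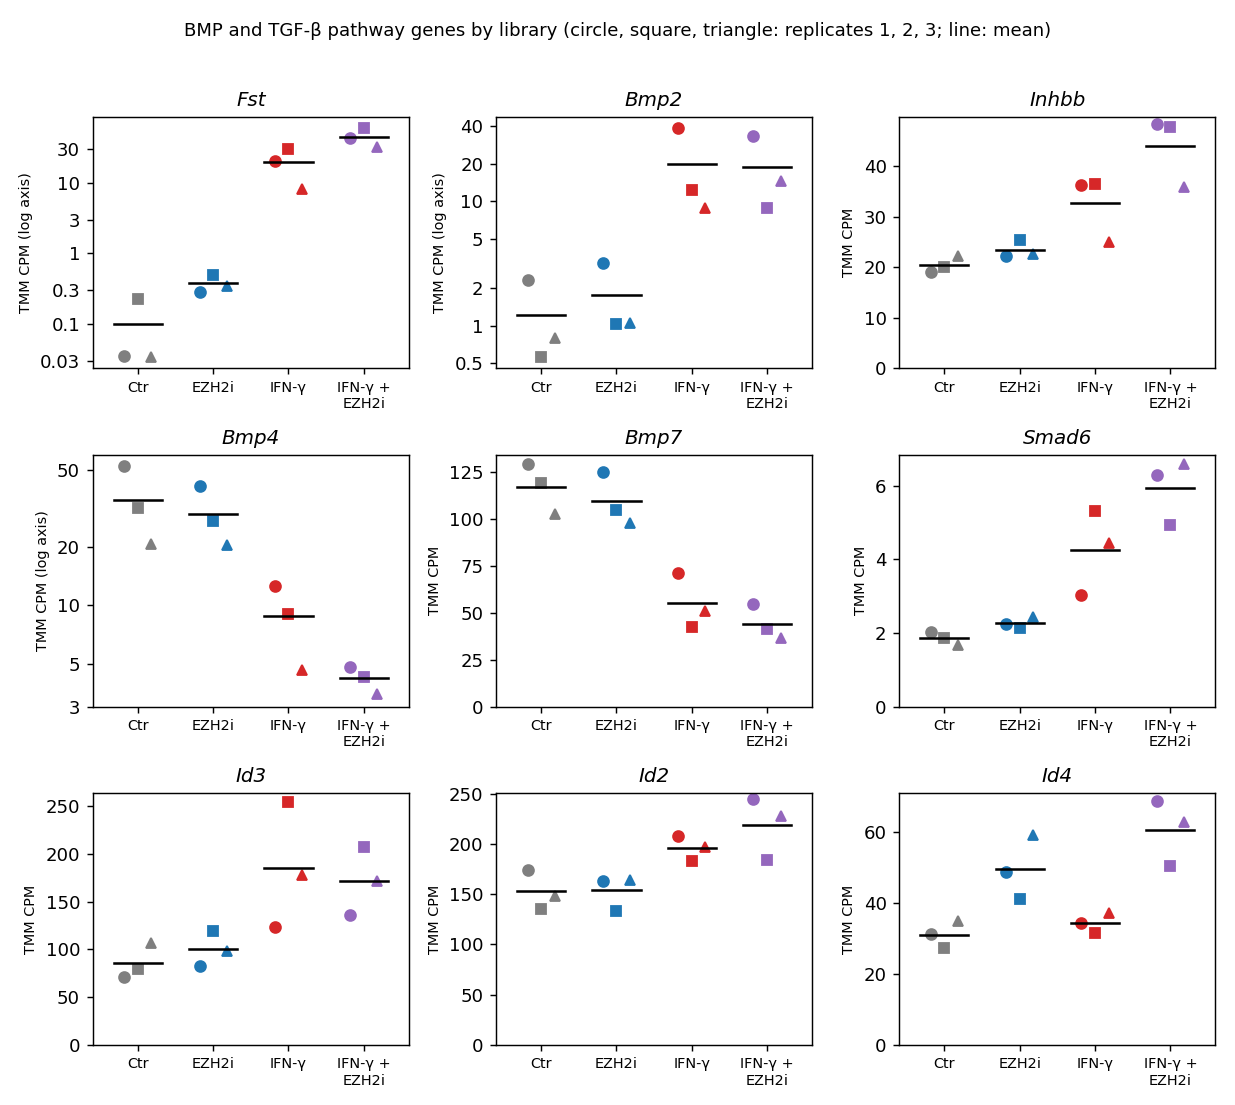
TMM-scaled CPM (y axis, logarithmic for Fst, Bmp2 and Bmp4 and linear from 0 for the others) of 9 members in the 4 groups, with circles, squares and triangles for replicates 1, 2 and 3 and a line at the group mean. Fst, Bmp2, Inhbb and Smad6 stand higher and Bmp4 and Bmp7 lower in all IFN-γ libraries than in the matching libraries without it, and Id4 stands higher in all libraries with EZH2i (41.2 to 68.9 CPM) than in those without (27.2 to 37.3 CPM).

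Follistatin, encoded by Fst (chr13:114452290-114458951, minus strand), binds activins with high affinity and several BMPs with lower affinity, and it showed the largest log2 fold change of the members with IFN-γ. The Ctr libraries held 1, 4 and 2 reads of Fst, which is 0.0355, 0.226 and 0.0339 CPM. With IFN-γ it was at 20.2, 30.4 and 8.08 CPM. From 7 reads in the Ctr libraries to 2270 reads in the IFN-γ libraries, the ratio at equal depth was 257, with a 95% interval of 125 to 641 that covers counting error only. The fitted log2 fold change was 8.07 ± 0.69 (adjusted p = 7.43e-06), a value that depends on the few Ctr reads and was 9.01 without Ctr replicate 2 and 7.41 without Ctr replicate 3. With EZH2i Fst was at 0.286, 0.493 and 0.349 CPM, and with both agents at 42.8, 59.7 and 32.3 CPM. That is 49 against 4265 reads, a ratio of 118 (88.7 to 159), with a fitted log2 fold change of 6.88 ± 0.57 (adjusted p = 5.07e-06). The calls held in all 12 fits without 1 library.

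Per length, Fst passed from the third to the first place among the 4 antagonists. Mean coding TPM in Ctr was 1.88 for Nog, 0.507 for Chrd, 0.0731 for Fst and 0.0308 for Grem1. With IFN-γ Fst was at 8.44 and with both agents at 16.5, against 4.41 and 3.95 for Nog. Against the activin subunit gene Inhbb, the coding TPM of Fst was 0.00287, 0.0541 and 0.00688 times as high in the Ctr libraries and 1.10, 2.06 and 0.582 times as high with IFN-γ. With EZH2i the ratio was 0.0284, 0.0524 and 0.0184, and with both agents 1.85, 2.83 and 1.61.

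Noggin (Nog), which binds BMPs and keeps them from their receptors, was at 4.65, 5.76 and 2.63 CPM in Ctr and at 6.80, 12.9 and 5.48 CPM with IFN-γ, where the lowest IFN-γ library lay under the highest Ctr library (log2 fold change 0.96 ± 0.36, adjusted p = 0.15). EZH2i libraries had 5.25, 3.81 and 3.11 CPM, and those with both agents 9.96, 7.39 and 7.95 CPM, without overlap. There the log2 fold change was 1.06 ± 0.36 (adjusted p = 0.112), and with the replicate block Nog rose with an adjusted p of 0.0101. Chordin (Chrd) and gremlin 1 (Grem1), BMP antagonists as well, had group means of 3.40 to 4.69 and 0.175 to 0.412 CPM and no call.

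Without the block 0 of the 7 receptors were called with IFN-γ by edgeR, with Acvr2a (against Ctr) and Bmpr1a (with EZH2i present) at an unadjusted p under 0.05, and DESeq2 called 0 as well. Bmpr1a, a type I BMP receptor, had the highest coding TPM of the class in each group. It was at 148.4, 220.4 and 210.8 CPM in Ctr and at 186.1, 284.8 and 308.5 CPM with IFN-γ, where the groups overlapped and replicate 1 was the lowest of each (log2 fold change 0.43 ± 0.23, adjusted p = 0.354). With EZH2i it was at 151.4, 204 and 208 CPM, and with both agents at 210.9, 300.1 and 310.5 CPM, without overlap. Its log2 fold change was 0.54 ± 0.23 (adjusted p = 0.223), and with the replicate block Bmpr1a rose with an adjusted p of 2.37e-04. Tgfbr2, the type II TGF-β receptor, had the largest log2 fold change of the receptors in the IFN-γ against Ctr comparison. It was at 4.36, 2.32 and 2.56 CPM in Ctr, at 4.25, 3.34 and 2.90 CPM with EZH2i, at 5.26, 2.90 and 5.05 CPM with IFN-γ and at 6.71, 4.62 and 3.78 CPM with both agents. Neighboring groups overlapped, and its log2 fold change with IFN-γ was 0.51 ± 0.33 (adjusted p = 0.466).

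Tgfbr1, the type I TGF-β receptor, had the second highest coding TPM of the receptors and overlapped between all groups. It was at 50.6, 51.2 and 50.4 CPM in Ctr, at 52.4, 43.8 and 49.1 CPM with EZH2i, at 52.4, 54.0 and 50.1 CPM with IFN-γ and at 42.5, 51.3 and 55.7 CPM with both agents. IFN-γ gave a log2 fold change of 0.04 ± 0.12 both without and with EZH2i. The type II receptor gene Bmpr2 was at 92.0, 106.1 and 100.6 CPM in Ctr, at 82.9, 68.7 and 94.5 CPM with EZH2i, at 99.7, 74.6 and 96.9 CPM with IFN-γ and at 94.8, 67.8 and 85.7 CPM with both agents. Its largest log2 fold change was that of EZH2i against Ctr, -0.28 ± 0.16 (adjusted p = 0.861). Acvr1, Acvr2a and Bmpr1b had group means of 8.04 to 10.3, 29.8 to 36.6 and 18.6 to 26.3 CPM.

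All 6 target genes had positive log2 fold changes with IFN-γ, both without and with EZH2i, and 2 of 6 were called in each comparison. Smad6, an inhibitory SMAD that acts mainly on the BMP branch, was at 2.02, 1.86 and 1.68 CPM in Ctr and at 3.02, 5.30 and 4.44 CPM with IFN-γ. It was at 2.25, 2.14 and 2.43 CPM with EZH2i and at 6.28, 4.92 and 6.58 CPM with both agents. The groups did not overlap in either comparison, and the log2 fold changes were 1.20 ± 0.24 (adjusted p = 0.00672) and 1.38 ± 0.24 (adjusted p = 0.00237). These calls held in all 12 fits without 1 library. Smad7, the inhibitory SMAD of both branches, was at 8.01, 7.79 and 6.63 CPM in Ctr and at 22.6, 18.2 and 9.10 CPM with IFN-γ, without overlap (log2 fold change 1.15 ± 0.39, adjusted p = 0.102). With EZH2i it was at 10.8, 7.07 and 5.97 CPM, and with both agents at 23.0, 9.82 and 10.5 CPM, where both groups overlapped in replicate 1 of EZH2i. The log2 fold change was 0.86 ± 0.38 (adjusted p = 0.263), and with the replicate block Smad7 rose with an adjusted p of 0.0186.

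The Id genes encode helix-loop-helix proteins without a DNA binding domain that hold back differentiation factors. Id3 was at 71.0, 78.9 and 106.4 CPM in Ctr and at 123.5, 254.5 and 177.9 CPM with IFN-γ, without overlap. The log2 fold change was 1.12 ± 0.26 (adjusted p = 0.018), and the call was lost without Ctr replicate 1, Ctr replicate 2 or IFN-γ replicate 2 (adjusted p up to 0.0856). With EZH2i Id3 was at 82.2, 119.5 and 98.6 CPM, and with both agents at 135.9, 207.1 and 171.4 CPM, again without overlap. There the log2 fold change was 0.78 ± 0.26 (adjusted p = 0.105), and with the replicate block Id3 rose with an adjusted p of 0.00264. Id1 was at 24.3, 22.2 and 18.1 CPM in Ctr and at 43.9, 62.3 and 30.01 CPM with IFN-γ, without overlap, and its log2 fold change of 1.08 ± 0.31 had an adjusted p of 0.0539. With EZH2i Id1 was at 25.6, 32.5 and 18.4 CPM, and with both agents at 65.2, 49.8 and 31.4 CPM, where the groups overlapped. On the log2 scale the difference was 0.94 ± 0.31 (adjusted p = 0.102), and with the block Id1 rose with an adjusted p of 0.00133.

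Id2 had the highest coding TPM of the members in every group. It was at 174.6, 135.1 and 148.6 CPM in Ctr and at 208.5, 183.4 and 197.2 CPM with IFN-γ, without overlap (log2 fold change 0.36 ± 0.14, adjusted p = 0.173). In EZH2i libraries it was at 163.3, 133.8 and 164.3 CPM, and with both agents at 245.1, 184.4 and 228.3 CPM. The rise with EZH2i present was 0.51 ± 0.14 on the log2 scale with an adjusted p of 0.0461, just inside the threshold, and the call held in 1 of the 12 fits that left out 1 library (adjusted p up to 0.195), that without IFN-γ with EZH2i replicate 2.

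The replicate block also called Id4 higher with both agents than with EZH2i, at a log2 fold change of 0.29 ± 0.09 and an adjusted p of 0.0429, against 0.439 without the block. In total, the fit with the block called 15 members in this comparison, 12 higher and 3 lower, against a background of 19.3% (11% higher and 8.3% lower). Besides the 7 called without the block, these were Inhba, Nog, Bmpr1a, Id1, Id3, Id4 and Smad7, higher, and Tgfb2, lower.

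The effect of IFN-γ did not pass the test for a difference between cells without and with EZH2i in any member. In this interaction 0 of 32 members and 0 of 18995 genes were called by edgeR (background 0%), and 0 members and 127 genes had an unadjusted p under 0.05. DESeq2 called 0 members and 0 genes, with 0 members and 135 genes at an unadjusted p under 0.05. With the replicate block 0 members and 0 genes were called, and 2 members and 545 genes had an unadjusted p under 0.05. The intervals were wide for the members that moved most: the difference in log2 fold change was -1.18 ± 0.98 (SE) for Fst and -0.54 ± 1.02 for Bmp2, so these values do not show that IFN-γ acted alike in both settings.

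EZH2i on its own was not accompanied by a called change in any member in the edgeR fit without the block. Of the 32 tested members 0 were called in EZH2i against Ctr, where 0.405% of all genes were called, and 4 members (Id4, Gdf7, Gdf10 and Fst) had an unadjusted p under 0.05, as did 1338 of the 18995 genes tested. In IFN-γ with EZH2i against IFN-γ 0 were called against a background of 0.353%, and 6 members and 1220 of all genes had an unadjusted p under 0.05. DESeq2 called 1 member in each, Id4 both times. The median log2 fold change over the members was 0.21 and 0.09, and that over all genes was 0.01 and -0.01. The libraries did not overlap for 6 members in the first comparison, all higher with EZH2i, and for 3 in the second, all higher, where 12.7% and 10.3% of all genes did not overlap (7.37% higher and 5.34% lower, and 6.08% higher and 4.26% lower).

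In the EZH2i comparisons Id4 was the member nearest to the threshold. It was at 31.3, 27.2 and 34.8 CPM in Ctr and at 48.9, 41.2 and 59.2 CPM with EZH2i. It was at 34.5, 31.6 and 37.3 CPM with IFN-γ and at 68.9, 50.4 and 62.8 CPM with both agents. No library with EZH2i overlapped one without it, and replicate 2 was the lowest in each group. The log2 fold changes were 0.68 ± 0.16 (adjusted p = 0.139) and 0.82 ± 0.16 (adjusted p = 0.0732). In the second comparison the replicate numbers paired the libraries, and with the block Id4 rose with an adjusted p of 5.11e-04.

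The promoter windows of Id4 and Id2 are shown because they are the only windows of targets that hold GGCGCC. This is the core of a GC-rich SMAD motif, which reads the same on both strands. The windows of Id3 and Smad6, which were called with IFN-γ against Ctr, do not hold it, and Id1 and Smad7 had no window. The motif was in 7 of the 31 windows of members and in 9.59% of all windows. The windows of members had a median GC content of 64%, against 52.4% over all windows, and GGCGCC is itself made of G and C. In Id4 (chr13:48260866-48261115, plus strand) the match starts 148 bases before the RefSeq start, and in Id2 (chr12:25096093-25096342, minus strand) it starts 231 bases before. The RefSeq start lies upstream of the GENCODE gene for Id4 and inside it for Id2.
Id4: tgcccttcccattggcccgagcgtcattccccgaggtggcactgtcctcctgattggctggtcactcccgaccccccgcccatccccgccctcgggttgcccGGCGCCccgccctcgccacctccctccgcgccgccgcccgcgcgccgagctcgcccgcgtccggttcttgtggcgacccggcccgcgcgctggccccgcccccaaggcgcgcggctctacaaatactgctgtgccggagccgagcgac
Id2: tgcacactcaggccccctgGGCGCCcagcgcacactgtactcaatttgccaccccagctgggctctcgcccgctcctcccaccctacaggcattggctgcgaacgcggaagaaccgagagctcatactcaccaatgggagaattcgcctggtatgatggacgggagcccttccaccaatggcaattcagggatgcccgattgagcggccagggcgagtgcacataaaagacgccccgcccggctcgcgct

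With the replicate block, 3 members were called in IFN-γ with EZH2i against IFN-γ (background 3.94%, with 3.11% higher and 0.827% lower), namely Id4 and Fst, higher, and Bmp4, lower. Fst was higher in every library with both agents (32.3 to 59.7 CPM) than in every library with IFN-γ alone (8.08 to 30.4 CPM), with a log2 fold change of 1.20 ± 0.42 (adjusted p = 0.488, with the block 0.00249). Bmp4 was at 3.50 to 4.83 CPM with both agents and at 4.64 to 12.7 CPM with IFN-γ alone, and these ranges overlapped (log2 fold change -1.06 ± 0.41, adjusted p = 0.624, with the block 0.00706). Without IFN-γ, Fst was at 0.286 to 0.493 CPM with EZH2i and at 0.0339 to 0.226 CPM in Ctr, 49 reads against 7 (log2 fold change 2.39 ± 0.86, adjusted p = 0.471).

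**Figure D4:**
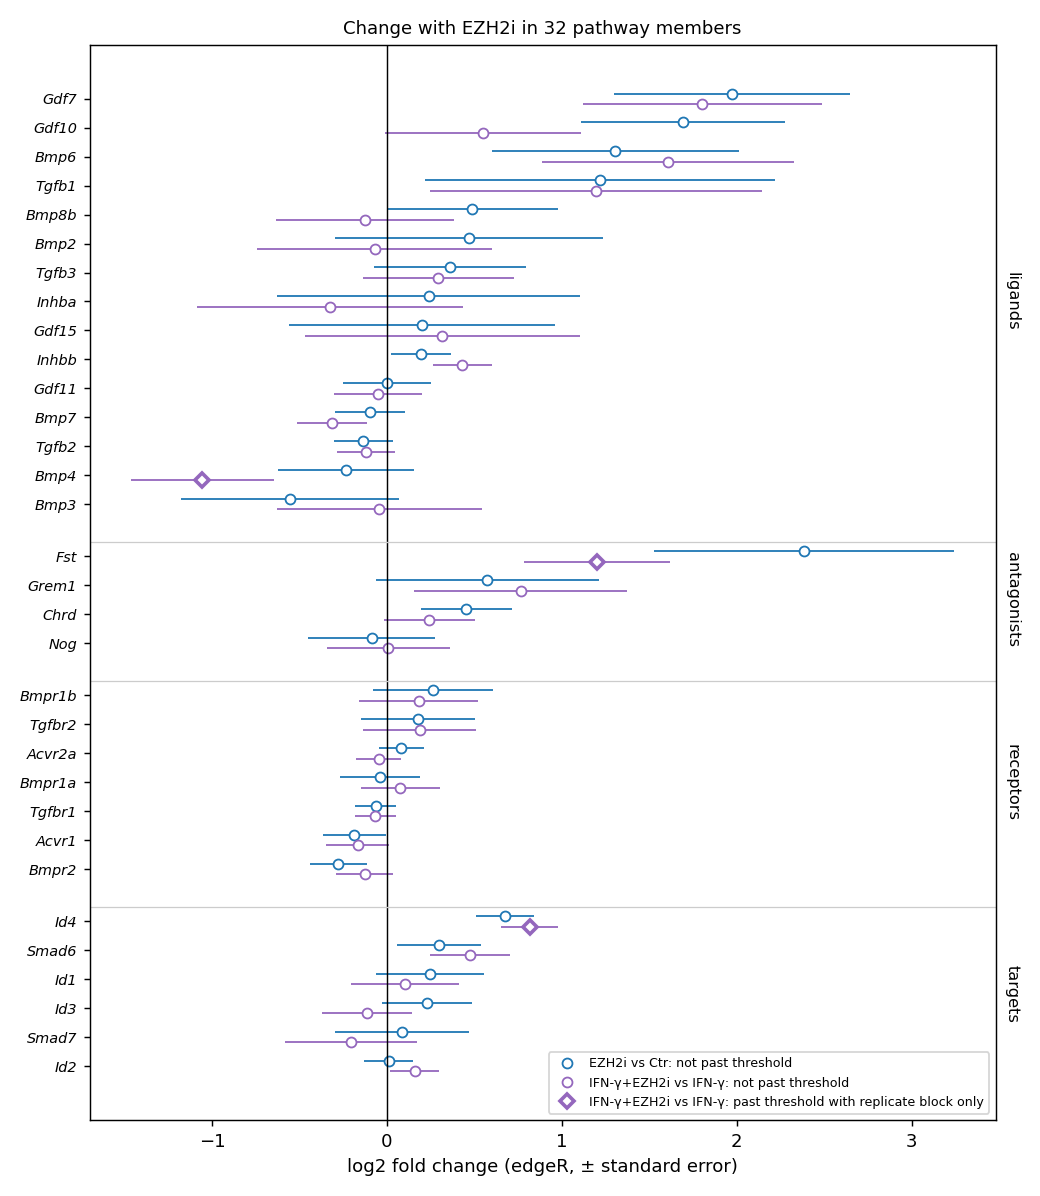
Log2 fold change with EZH2i (x axis, edgeR, bars are ± standard error) of the 32 tested members by class, without IFN-γ (blue) and with IFN-γ (purple). No member passed an adjusted p of 0.05 in the fit without a block, and diamonds mark Bmp4, Fst and Id4, which passed with the replicate block in the comparison whose numbers paired.

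Gdf7, a roof plate ligand of the developing spinal cord, had the largest log2 fold change of the ligands with EZH2i at levels near the floor. The Ctr libraries held 1, 2 and 7 reads and the EZH2i libraries 11, 18 and 16 reads, or 0.0355, 0.113 and 0.119 CPM against 0.393, 0.493 and 0.243 CPM. With IFN-γ it was at 0.168, 0.0799 and 0.0309 CPM and with both agents at 0.470, 0.304 and 0.149 CPM. The groups did not overlap without IFN-γ and did with it, and the log2 fold changes were 1.97 ± 0.67 (adjusted p = 0.413) and 1.80 ± 0.68 (adjusted p = 0.597). Gdf10 was at 0.577 to 0.993 CPM in Ctr and at 1.66 to 3.61 CPM with EZH2i, without overlap, and its log2 fold change of 1.69 ± 0.58 did not pass the test either (adjusted p = 0.426).

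Beyond the members, a list of 80 further genes of the pathways was examined, of which 60 passed the filter on low counts. With IFN-γ against Ctr 12 rose and 2 fell, and with both agents against EZH2i 7 rose and 2 fell, with 8.75% and 8.07% of all genes called. EZH2i called 0 of the 60 by edgeR in either comparison, with 9 and 10 at an unadjusted p under 0.05, and DESeq2 called 1 in each. In the comparisons whose numbers paired, the block gave 15 higher and 8 lower with both agents against EZH2i, where the same fit called 11% of all genes higher and 8.3% lower. It gave 4 higher and 4 lower with both agents against IFN-γ, beside 3.11% of all genes higher and 0.827% lower.

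Several of the called genes act outside or at the surface of the cell on the same ligands. Twsg1, a modulator that binds BMPs together with chordin, was at 31.1, 32.5 and 36.7 CPM in Ctr and at 71.0, 72.5 and 70.2 CPM with IFN-γ (log2 fold change 1.09 ± 0.10, adjusted p = 1.76e-05). With EZH2i it was at 34.9 to 38.6 CPM and with both agents at 77.8 to 86.2 CPM (1.16 ± 0.10, adjusted p = 9.82e-06). Bambi, a pseudoreceptor without kinase domain, had means of 6.75 ± 0.48 CPM in Ctr and 13.6 ± 1.95 with IFN-γ (SD, n = 3), a log2 fold change of 1.02 (adjusted p = 0.00242). Thbs1, thrombospondin 1, which can activate latent TGF-β, was at 3.44 to 6.81 CPM in Ctr and at 18.0 to 45.6 CPM with IFN-γ (log2 fold change 2.78, adjusted p = 2.21e-04). Vwc2, which encodes the BMP antagonist brorin, fell from 14.6 to 20.9 CPM in Ctr to 9.06 to 9.85 CPM with IFN-γ (log2 fold change -1.0, adjusted p = 0.00181). With EZH2i present Bambi and Thbs1 rose and Vwc2 fell as well (1.13, 1.88 and -1.03 on the log2 scale), and the calls for these 4 genes held in all 12 fits without 1 library. Fstl3, a relative of follistatin, had means of 0.108 ± 0.053 CPM in Ctr and 0.615 ± 0.285 with IFN-γ (log2 fold change 2.57, adjusted p = 0.0291, held in 7 of 12 such fits). These levels rest on 2, 3 and 5 reads in the Ctr libraries and 28, 19 and 26 reads in the IFN-γ libraries.

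Genes known to respond to TGF-β and nuclear corepressors of SMADs were also among those that rose with IFN-γ against Ctr. Not all targets did: of the 10 tested in the wider list, 7 had a positive log2 fold change and 0 were called lower. Tagln and Hes1 had lower means with IFN-γ (5.98 and 5.44 CPM) than in Ctr (7.32 and 7.38 CPM). Tgfbi was at 2.34 to 14.8 CPM in Ctr and at 16.2 to 79.1 CPM with IFN-γ (log2 fold change 3.0, adjusted p = 0.0201, and 4.14 without Ctr replicate 1). Ccn2, a matricellular protein gene, was at 2.37 to 3.40 and at 6.50 to 22.7 CPM (2.20, adjusted p = 0.0059, and 1.49 without IFN-γ replicate 1). The corepressor genes Tgif1 and Skil had log2 fold changes of 1.93 (adjusted p = 0.0139) and 0.68 (adjusted p = 0.022). Of these 4, Ccn2 kept its call in all 12 fits that left out 1 library, and Tgfbi, Tgif1 and Skil kept it in 8, 9 and 7. Leaving out Ctr replicate 2, Ctr replicate 3 or IFN-γ replicate 1 ended all 3 of these calls, IFN-γ replicate 2 ended those of Tgfbi and Skil, and Ctr replicate 1 that of Skil (adjusted p up to 0.105). With EZH2i present Tgfbi, Ccn2, Tgif1 and Skil rose (3.09, 1.53, 1.84 and 0.62 on the log2 scale), with calls that held in 7, 4, 9 and 3 of 12 fits.

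**Figure D5:**
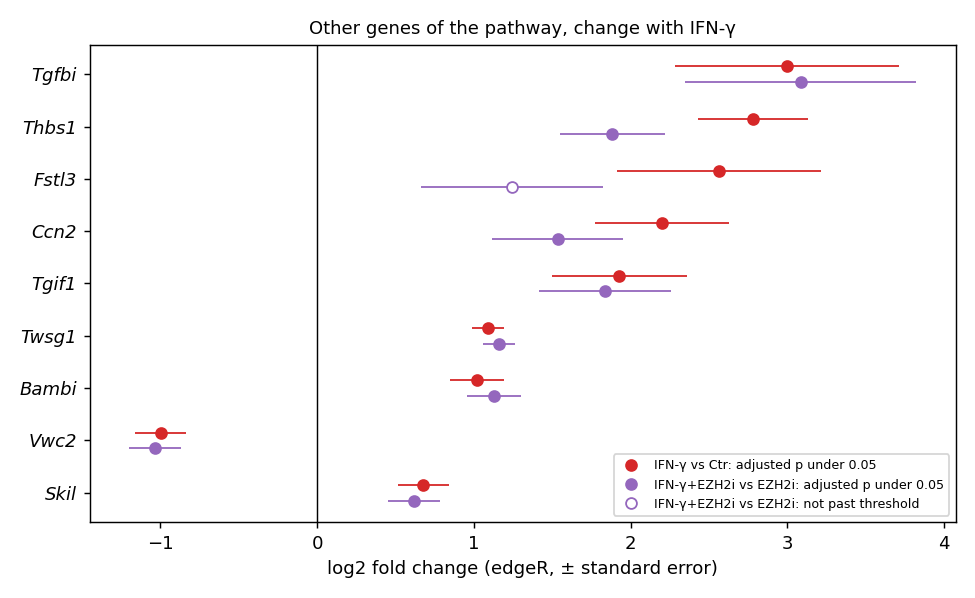
Log2 fold change with IFN-γ (x axis, edgeR, bars are ± standard error) of the 9 genes named from the wider pathway list, without EZH2i (red) and with EZH2i (purple), with filled circles where the adjusted p was under 0.05. Vwc2 lies left of 0 in both comparisons, the other 8 lie right of it, and Fstl3 is open with EZH2i present.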

How the data were processed

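RNA-seq was measured in 12 libraries of cultured mouse OPCs, 3 in each of 4 groups taken from the labels. After trimming, the authors used Salmon 0.8.2 (per the labels) with a mouse GRCm38 annotation and deposited its estimated count for each transcript, before any normalization. The deposited TPM values were computed by the authors from the same reads divided by effective transcript length and scaled to a constant sum per library. Tables of the authors' own DESeq2 comparisons hold fold changes and p-values and were not used.

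Estimated counts were summed per gene over GENCODE vM21 (all 141862 transcripts matched) and rounded. A quasi-likelihood model of edgeR 4.0.16 (R 4.3.3) was fitted to the 12 libraries together, by group, after TMM scaling and filterByExpr, and p-values were adjusted over 18995 genes by the Benjamini-Hochberg method. The fit was tested on simulated data. CPM are TMM-scaled. Totals differed by up to 3.82 times, so genes with few reads are least precise in the shallowest library. The 95% intervals of the Fst read ratios cover counting error only. Standard errors come from the edgeR fit and include the spread between libraries. P-values set the difference between groups against the spread between libraries of a group, which was estimated over the 12 libraries together. In the fit with the block, differences between replicate numbers are taken out of that spread. The coding TPM leaves out non-coding transcript models, since a retained-intron model of Bmp4 of 258 bases took 40.9% of its TPM.

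The members and lists were chosen with earlier results of these data known. Values per library are given for members called in any comparison, including the block fit where the numbers paired, for the 2 members of each class with the highest TPM, and for the member of each class with the largest change in each comparison. From the wider list the genes with the 10 largest called changes were chosen, of which 1 is not reported here.

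The labels number the replicates 1 to 3 in each group. Deviations from the group means of same-numbered libraries correlated at 0.44 or more for both agents against EZH2i and at 0.438 or more for both agents against IFN-γ, so the numbers pair these libraries. For EZH2i and IFN-γ against Ctr the lowest correlations, those of replicate 2, were 0.0329 and 0.0725. These lay under the limit of 0.1, so no pairing was assumed for these comparisons. The fit with the block was nevertheless made to all 12 libraries together, with replicate effects common to the 4 groups, Ctr included. The block p-values of the paired comparisons therefore also rest on the Ctr libraries, whose replicate 2 fell under the limit. Replicates 1 and 3 correlated at 0.378 and 0.454 for EZH2i against Ctr and at 0.427 and 0.491 for IFN-γ against Ctr. Alternatives were DESeq2 1.42.0, other scaling, other filters on low counts, length-scaled TPM, the replicate block, the 6 samples of a comparison alone, a fold change threshold, and each library left out in turn.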

Additional observations from a re-analysis of the deposited data

How the results depend on the processing

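With DESeq2, 1 member was called in EZH2i against Ctr, 1 in IFN-γ with EZH2i against IFN-γ, 11 in IFN-γ against Ctr and 11 in IFN-γ with EZH2i against EZH2i, in place of 0, 0, 7 and 7, while it called 331, 281, 2185 and 2099 of all genes. With the replicate block these counts were 2, 3, 15 and 15, and no interaction call was made. The 2 called in EZH2i against Ctr with the block were Gdf10 and Id4. No pairing was assumed there or in IFN-γ against Ctr, since replicate 2 fell under the limit. Leaving out 1 library at a time gave 5 to 9 and 5 to 7 members for the IFN-γ comparisons and 0 for the EZH2i comparisons. All other alternatives left these counts within 1.5 times. Over all genes, the 77 called with EZH2i against Ctr were 121 without a filter on low counts, 29 with at least 10 counts in every sample, 771 with the block, 50 with length-scaled TPM and 33 with the 6 samples alone. The 67 called with both agents against IFN-γ were 11, 748, 30 and 7 under the count minimum, the block, length-scaled TPM and the 6 samples alone. Without 1 library they were 11 to 83 and 10 to 65. The 1663 and 1533 genes called with IFN-γ were 4032 and 3661 with the block, and 1111 to 1710 and 1078 to 1566 without 1 library. Above an absolute log2 fold change of 1 they were 890 higher and 162 lower, and 828 higher and 175 lower. Of the log2 fold changes of named genes, 886 kept direction and side of the threshold, 21 passed it newly, 80 no longer passed it and 2 turned. Those 2 were Tgfbr2 in both agents against IFN-γ without IFN-γ replicate 2 (-0.04) or without IFN-γ with EZH2i replicate 1 (-0.078), where values without 1 library ran from -0.078 to 0.36. On deposited TPM the log2 ratio of group means of Bmpr2 in EZH2i against Ctr was 0.043, against -0.28 in the fit. The cause of these changes was not tested. Depth limits Fst in Ctr, Inhba in replicate 2 of Ctr and of EZH2i, Fstl3, Gdf7, Tgfb1, Bmp3, Bmp6, Bmp8b and Grem1, which rest on few reads per library.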
